A study of Mus musculus with 12 samples.

Results

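Dnmt1, Dnmt3a, Dnmt3b, Dnmt3l, Tet1, Tet2, Tet3 and Tdg were followed as methylated loci in mouse cortex. These 8 genes encode members of the DNA methyltransferase family, the TET oxidases and thymine DNA glycosylase. They were taken by name from 23882 genes with a symbol, and the transcript row with most calls stood for each gene. What was measured is the methylation of their own DNA, not their expression: non-CG methylation (mCH), the share of cytosines not followed by guanine that were read as methylated after bisulfite treatment, over the whole annotated gene. Cortical DNA of C57BL/6 mice gave 12 libraries. At postnatal day 40 (P40) there were 4 wild-type (WT) libraries and 4 libraries of the genotype miR29 KO. At 4 months there were 2 WT libraries and 2 of the genotype Dnmt3a mi5, an allele that the sample titles write as DNMT3AmiR29MUT. The labels do not say in which cells miR-29 was lost, or whether the mi5 allele was on 1 or both chromosomes. Whether all replicates were separate animals is not said either. Y-linked coverage, given below, differed within each group, so no group was repeats of 1 DNA source alone. A p-value here covers only how these samples vary, which may in part be technical. WT and mutant share the background strain, and age, genotype and experiment change together between the P40 and 4-month sets.

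DNMT3A and DNMT3B place methyl groups on DNA that carries none, and DNMT3L, which has no catalytic activity of its own, stimulates them. DNMT1 copies CG methylation to the new strand after replication. In the brain DNMT3A is the enzyme that deposits mCH, which builds up in neurons after birth and tends to be low over highly transcribed genes. TET1, TET2 and TET3 oxidise 5-methylcytosine, and TDG excises the further oxidised bases so that base excision repair can restore cytosine. The miR-29 microRNAs repress Dnmt3a and other mRNAs of this system through sites complementary to their seed, which links both mutants to the enzyme that writes mCH.

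The mature miR-29 strands that the knockout is labelled to lack share 1 seed, bases 2 to 8 counted from the 5′ end, given here in capitals (RefSeq, GRCm38.p6). They are shown because the seed is the part that pairs with target mRNAs. miR-29a-3p is encoded on chromosome 6, miR-29c-3p on chromosome 1, and miR-29b-3p on both, by separate genes.
miR-29a-3p: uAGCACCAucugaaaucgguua
miR-29b-3p: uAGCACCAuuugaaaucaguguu
miR-29c-3p: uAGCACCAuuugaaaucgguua
Beyond the seed the strands differ in few bases, and the mature sequences of miR-29a-3p, miR-29b-3p and miR-29c-3p are 22, 23 and 22 bases long. The 4 miR-29 genes, as a check of the labels, had 26, 69, 54 and 6 calls together in KO replicates 1 to 4 and 224, 137, 121 and 244 in the WT replicates, so the groups did not overlap. At 4 months they had 129 and 106 calls in mi5 and 151 and 200 in WT.

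All 8 genes had windows at their start sites in the RefSeq table, 3 of them for Dnmt3a. The first and the last Dnmt3a window are printed because the long and the short Dnmt3a transcript rows, compared below, begin at different places in the gene. Each runs from 250 bases before the start to 50 after it, on the plus strand of GRCm38.p6. Capitals mark CG, so each lower-case c is a non-CG cytosine of this strand, the kind of position that mCH counts.
Dnmt3a first start, chr12:3806730-3807029: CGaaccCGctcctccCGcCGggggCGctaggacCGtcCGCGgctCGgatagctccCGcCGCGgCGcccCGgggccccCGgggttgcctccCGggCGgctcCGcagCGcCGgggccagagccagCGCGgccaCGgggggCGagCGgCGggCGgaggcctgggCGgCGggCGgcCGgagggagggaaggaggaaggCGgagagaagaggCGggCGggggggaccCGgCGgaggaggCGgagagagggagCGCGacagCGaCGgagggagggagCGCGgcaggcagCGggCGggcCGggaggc
Dnmt3a last start, chr12:3891494-3891793: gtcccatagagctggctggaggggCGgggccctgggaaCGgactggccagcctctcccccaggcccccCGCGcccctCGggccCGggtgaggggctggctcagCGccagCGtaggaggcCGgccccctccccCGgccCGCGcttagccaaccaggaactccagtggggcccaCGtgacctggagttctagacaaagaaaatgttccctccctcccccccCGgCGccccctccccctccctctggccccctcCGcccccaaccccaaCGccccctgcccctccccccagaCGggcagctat
The first window held 46 CG sites and 47 non-CG cytosines, and 1.6% of the 32851 windows in the table held as many CG sites or more. The last window held 18 CG sites and 121 non-CG cytosines, and 29.7% of all windows held as many CG sites or more. CG was searched on this strand, where it reads the same on the other, and 94.6% of windows held at least 1. The deposited values are for whole genes on mm9 and give no level for these windows.

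The libraries held 399563492 to 732985426 calls over all genes. Of 19826 genes with at least 500 calls in every library, the level of the median gene was 1.21% to 1.44% in the P40 WT libraries and 1.21% and 1.23% in those of 4 months. It was 1.63% to 2.39% in the KO and 2.20% and 2.22% in mi5, so the median gene lay higher in every mutant library than in every WT library. KO replicate 4 stood apart at 1.63%, against 2.06% to 2.39% in the other KO libraries. In 4 libraries, 1 per group (WT replicate 2 and KO replicate 3 at P40, WT replicate 2 and mi5 replicate 1 at 4 months), coverage of Y-linked genes was under 0.1 of the highest library. The paired libraries of each 4-month group differed in this, so they did not come from the same source of DNA. Each P40 group likewise held more than 1 source. All 8 genes passed the minimum of 500 calls. Dnmt3a had the most calls, 29431 to 81701 per library, and Dnmt3l and Tdg the fewest, from 4792 and 5876. In the first WT library at P40 the 95% Wilson interval was 0.713% to 0.833% around 0.771% for Dnmt3a and 0.380% to 0.600% around 0.478% for Tdg. The intervals cover counting error only. In bulk tissue a change in the share of neurons and a change in the level per cell cannot be told apart.

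In WT cortex at P40 the genes of the methylation system differed several-fold in their own mCH. Dnmt3b was the most methylated, at 2.51% ± 0.329 (SD, n = 4 here and for the next values), followed by Dnmt3l at 1.95% ± 0.442, Tet1 at 1.43% ± 0.204 and Tet2 at 1.2% ± 0.0951. Dnmt1 at 0.859% ± 0.0939, Tet3 at 0.851% ± 0.0271, Dnmt3a at 0.736% ± 0.0421 and Tdg at 0.667% ± 0.206 formed the low end. Within each library Dnmt3b lay above Dnmt3l, Dnmt3l above Tet1, Tet1 above Tet2 and Tet2 above Dnmt1 in 4 of 4 cases, although the ranges of each of these pairs but the last overlapped between libraries. Dnmt1 and Tet3 differed by 0.00750 points, less than their spread, and Dnmt3a and Tdg by 0.0696 points, also less than the spread of Tdg. Tet3 lay above Dnmt3a in every WT library at P40, with no overlap.

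Set against all tested genes of the same library, Dnmt3b stood on average at the 91.9th percentile of WT levels at P40 and Dnmt3l at the 74.2nd. Tet1 stood at the 54.7th and Tet2 at the 45.6th. Dnmt1 and Tet3 stood at the 30.6th and 30.5th, Dnmt3a at the 24.4th and Tdg at the 19.9th. At 4 months the order of the WT means was the same but for Tet3, which lay above Dnmt1 in both libraries. Dnmt3l and Tet1 differed there by 0.295 points, less than the spread of Dnmt3l, and changed places in 1 of 2 libraries. Dnmt3b had 2.22% ± 0.170 and Dnmt3l 1.83% ± 0.428 (SD, n = 2 each), which differed by less than their spread and changed places in 1 of 2 libraries, and Dnmt3a and Tdg, at 0.672% ± 0.00485 and 0.639% ± 0.117, again did not separate.

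**Figure D1:**
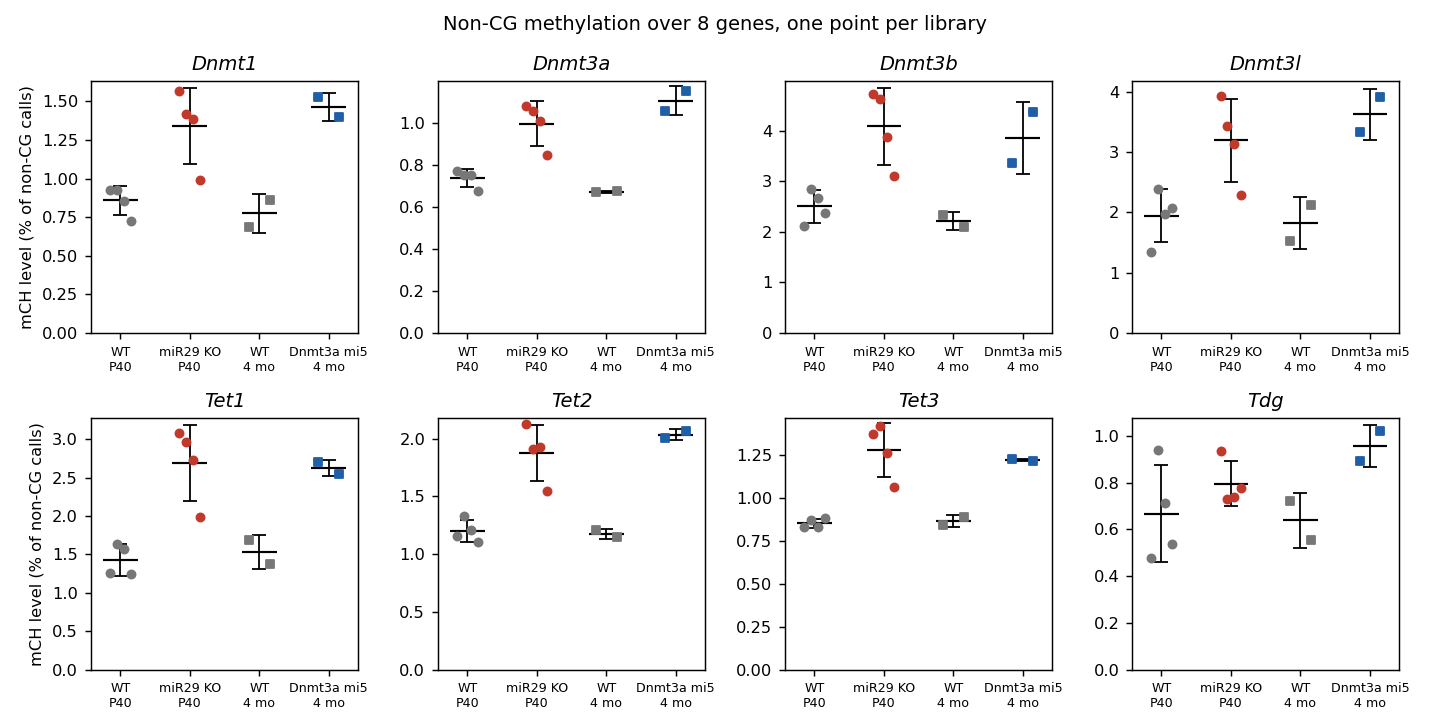
Level of non-CG methylation (percent of non-CG calls, vertical axis, from 0) of the 8 genes in each library, by group; points are libraries, horizontal lines means and bars SD (n = 4 at P40, n = 2 at 4 months). The KO and mi5 points lie above the WT points of the same age for every gene except Dnmt3l and Tdg at P40, where libraries overlap.

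The first comparison asked whether the loci of the methylation machinery carried more mCH in the cortex of miR29 KO mice at P40. They did for 7 of 8 genes: Dnmt3a, Dnmt3b, Dnmt3l, Dnmt1, Tet1, Tet2 and Tet3 rose, and Tdg did not pass the test. The effect is a log2 odds ratio from a quasi-binomial model fitted to all tested genes, with limma-moderated dispersion and Benjamini-Hochberg adjusted p under 0.05 as threshold. Of all tested genes 76.4% rose by that rule and 0.0504% fell, so the share among the 8 was near that of all genes. The median log2 odds ratio of the 8 was 0.66 against 0.65 for all genes, and 4 of the 8 lay below the latter. In 6 of the 8 genes every KO library lay above every WT library, which was so for 57.1% of all genes.

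Dnmt3a had 0.771%, 0.749%, 0.750% and 0.675% in WT replicates 1 to 4 and 1.08%, 1.05%, 1.01% and 0.845% in the KO replicates. The WT values sit close together, the lowest KO library is replicate 4, and the groups do not overlap. The mean went from 0.736% ± 0.0421 to 0.995% ± 0.105 (SD, n = 4 each), a ratio of 1.35 and a log2 odds ratio of 0.44 (SE 0.15, adjusted p = 0.0120). Without the libraries of low Y-linked coverage the log2 odds ratio was 0.45, but it no longer passed (adjusted p = 0.154). Dnmt3a thus stood at the 19.5th percentile of all changes.

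Dnmt3b, the close relative of Dnmt3a, had 2.11%, 2.86%, 2.68% and 2.37% in WT and 4.72%, 4.64%, 3.88% and 3.11% in the KO. The groups did not overlap, and KO replicate 4 again came nearest to WT. Its log2 odds ratio was 0.74 (SE 0.13, adjusted p = 8.8e-05), a ratio of means of 1.63. Dnmt3l, the regulatory subunit, had 1.34%, 2.39%, 1.97% and 2.08% in WT and 3.93%, 3.44%, 3.13% and 2.29% in the KO. Here KO replicate 4 fell below WT replicate 2, so the groups overlapped, while the model placed the rise at 0.76 (SE 0.17, adjusted p = 5.0e-04). An exact two-sided permutation test of its 8 levels gave p = 0.0571, against p = 0.0286 for each of the 6 genes with no overlap, the smallest that 70 assignments allow.

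Dnmt1, the maintenance enzyme, had 0.925%, 0.928%, 0.855% and 0.727% in WT and 1.57%, 1.42%, 1.38% and 0.993% in the KO. Every KO library was above WT, and the log2 odds ratio of 0.65 (SE 0.16, adjusted p = 0.00159) was that of the median gene. KO replicate 4 was the lowest KO library for each of the 7 genes that rose. For Tdg it was not.

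Among the oxidases Tet1 showed the largest change of the 8 genes on the log odds scale; in percentage points the change of Dnmt3b was larger, 1.58 against 1.26. Its levels were 1.26%, 1.64%, 1.57% and 1.25% in WT and 3.08%, 2.96%, 2.73% and 1.98% in the KO, with a clear gap between the groups. The mean went from 1.43% ± 0.204 to 2.69% ± 0.493 (SD, n = 4 each), a ratio of 1.88 and a log2 odds ratio of 0.94 (SE 0.14, adjusted p = 5.8e-05), at the 95.9th percentile of all genes. Tet2 had 1.16%, 1.33%, 1.21% and 1.11% in WT and 2.13%, 1.91%, 1.93% and 1.54% in the KO (log2 odds ratio 0.67, SE 0.13, adjusted p = 1.7e-04). Tet3 had 0.828%, 0.868%, 0.83% and 0.881% in WT, the tightest WT group of the 8, and 1.37%, 1.42%, 1.26% and 1.06% in the KO (log2 odds ratio 0.60, SE 0.14, adjusted p = 9.7e-04). Neither gene had overlapping groups, and both lay near the middle of all genes, at the 53.7th and 39.4th percentile.

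Tdg was the exception. Its levels were 0.478%, 0.938%, 0.713% and 0.538% in WT and 0.935%, 0.731%, 0.738% and 0.778% in the KO, so the highest WT library reached the highest KO library and the groups overlapped. The log2 odds ratio was 0.27 (SE 0.22, adjusted p = 0.268), with a 95% interval of -0.19 to 0.73, which includes the change of the median gene. The exact permutation p was 0.257. The fit set against the median gene of each library, given below, placed Tdg lower than the median gene, without passing the threshold. Tdg had 12451 to 15276 calls per library at P40.

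**Figure D2:**
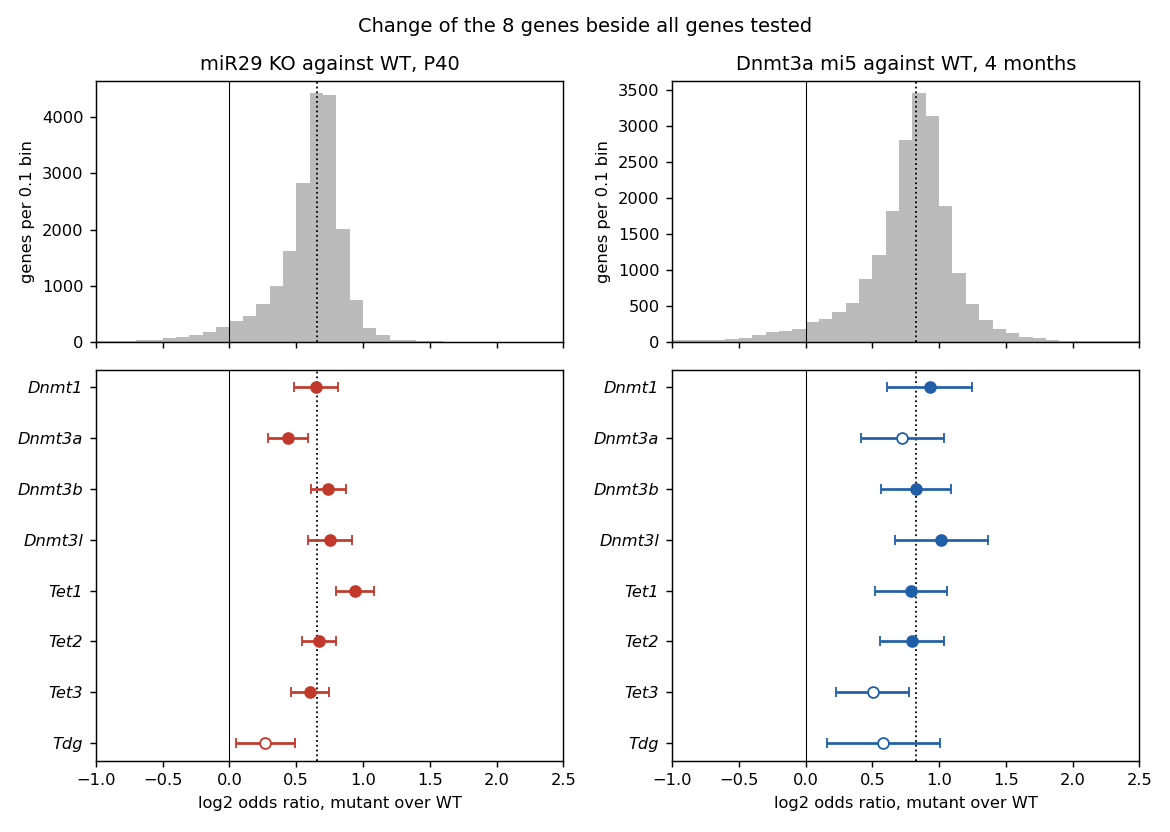
Top, number of genes in each 0.1-wide bin of log2 odds ratio (19826 genes); bottom, log2 odds ratio of the 8 genes with SE bars, filled where the adjusted p was under 0.05 and open where not. The dotted line is the median of all genes, 0.65 at P40 and 0.83 at 4 months; Tet1 lies to its right and Dnmt3a and Tdg to its left at P40.

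Because most genes rose, each level was also set against the median gene of its own library, and the model was refitted with that median as an offset. A rise by the same factor in all genes is removed on this scale. The lowest genes rose less than the median gene: the 1st percentile of levels was 0.23% to 0.26% in the WT libraries at P40 and 0.26% to 0.29% in the KO. Whether genes of low level, such as Dnmt3a and Tdg, fall on this scale for that reason was not tested. Tet1 stood at 1.03 to 1.15 times the library median in WT and 1.22 to 1.34 times in the KO, with no overlap. Of all genes 3.21% separated upwards in this way. Its centred log2 odds ratio was 0.26 (SE 0.06, adjusted p = 0.0106), a call that 1.01% of all genes shared. The call was lost by limma on centred log2 levels (adjusted p = 0.142), without WT replicate 1 (adjusted p = 0.0525) and without the libraries of low Y-linked coverage (adjusted p = 0.0527), with a log2 value of 0.23 to 0.28 in these alternatives.

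Dnmt3a moved the other way on that scale. It stood at 0.635, 0.520, 0.550 and 0.555 times the library median in WT and 0.451, 0.476, 0.487 and 0.518 times in the KO. The groups touch almost, at 0.520 and 0.518, and 7.35% of all genes separated downwards. The centred log2 odds ratio of -0.25 (SE 0.07) lay just past the threshold (adjusted p = 0.0495), as did 3.59% of all genes. This call rests on the setting: it was lost in 10 of the 12 fits that leave out 1 library (kept without WT replicate 2 or KO replicate 4), with limma on centred log2 levels (adjusted p = 0.196) and with the library mean in place of the median (adjusted p = 0.0683). The other 6 genes did not pass after centring, with values from -0.41 for Tdg to 0.06 for Dnmt3l. For Tdg the 95% interval of the centred value was wholly negative, at -0.75 to -0.07 (SE 0.16, adjusted p = 0.154). The Tdg levels over the library median overlapped, at 0.394 to 0.651 in WT and 0.330 to 0.477 in the KO.

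**Figure D3:**
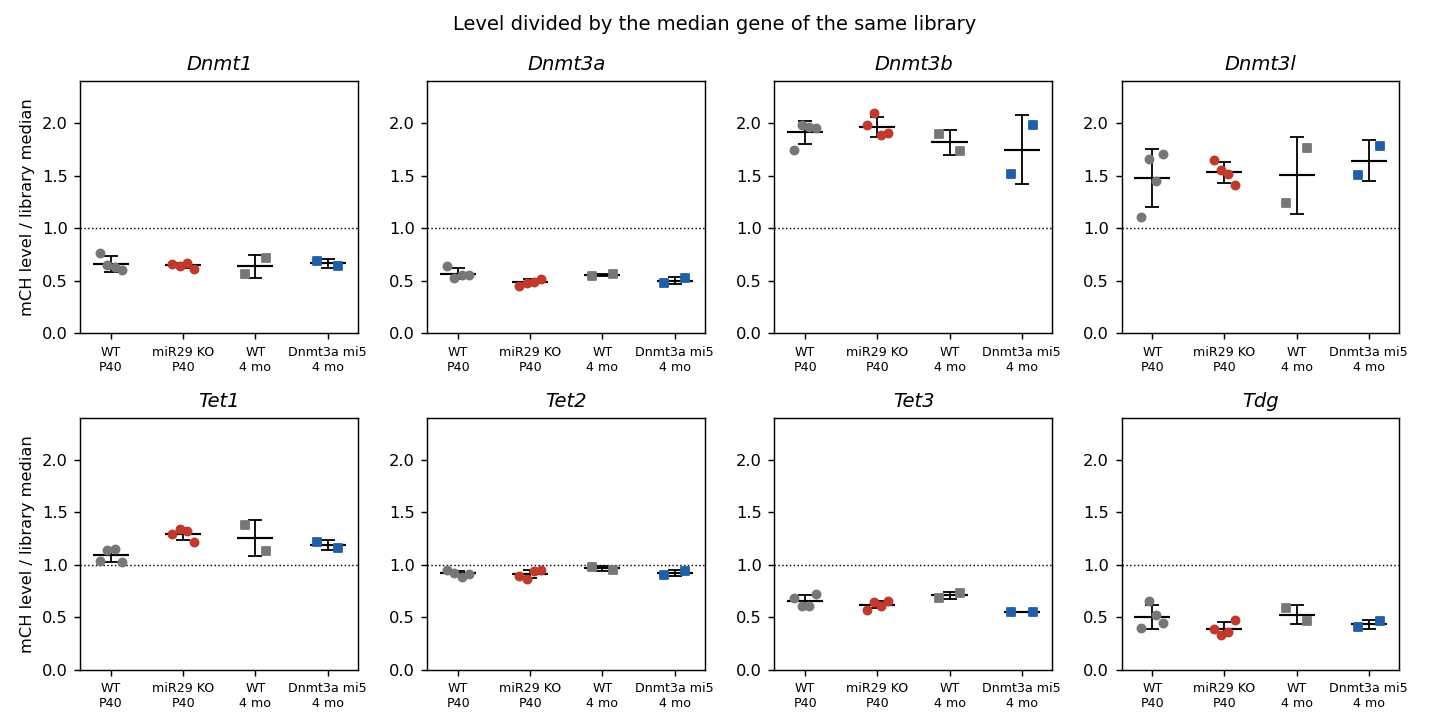
Level of each gene divided by the median gene level of the same library (no unit, same axis from 0 for all genes); points are libraries, lines means, bars SD, and the dotted line marks the library median. Tet1 is higher and Dnmt3a lower in the KO than in WT at P40 without overlap, and the other 6 genes overlap there.

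At 4 months the same loci were compared between the Dnmt3a mi5 allele and WT, with 2 libraries each. Of the 8 genes 5 rose, Dnmt3b, Dnmt3l, Dnmt1, Tet1 and Tet2, while 58.8% of all genes did. Dnmt3a, Tet3 and Tdg did not pass. The median log2 odds ratio of the 8 was 0.79 against 0.83 for all genes. For all 8 genes both mi5 libraries lay above both WT libraries, as they did for 86.2% of all genes, and with 2 libraries a group the smallest exact permutation p is 0.333.

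Dnmt3a, the gene that carries the allele, had 0.669% and 0.676% in WT and 1.06% and 1.15% in mi5. Both pairs are tight and well apart, a ratio of means of 1.64. The log2 odds ratio was 0.73 (SE 0.31), and the adjusted p of 0.0505 fell just short of the threshold. It passed with limma on log2(percent + 0.1) (adjusted p = 0.00706), with the 4-month groups fitted alone (adjusted p = 3.3e-05), with a minimum of 2000 calls (adjusted p = 0.0453), and without KO replicate 1 or 4 (adjusted p = 0.0390 and 0.00604), which enter through the shared estimate of the spread. With the replicate number of the titles as a block the adjusted p was 0.0482. It did not pass when any 1 of the 4-month libraries was left out (limma-moderated adjusted p = 0.113 to 0.194) or without those of low Y-linked coverage (0.403).

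Of the other methyltransferase genes Dnmt3b changed like the median gene, at the 50.5th percentile of all changes. Dnmt1 and Dnmt3l stood higher, at the 68.3rd and 81.0th. Dnmt3b had 2.34% and 2.10% in WT and 3.36% and 4.36% in mi5 (log2 odds ratio 0.83, SE 0.26, adjusted p = 0.0131). Its mi5 libraries differed from each other by more than its WT libraries did. Dnmt3l had 1.52% and 2.13% in WT and 3.33% and 3.92% in mi5 (1.02, SE 0.35, adjusted p = 0.0193), and Dnmt1 had 0.687% and 0.862% in WT and 1.53% and 1.40% in mi5 (0.93, SE 0.32, adjusted p = 0.0196). For both genes the mutant values were well clear of the WT values.

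Tet1 had 1.69% and 1.37% in WT and 2.70% and 2.55% in mi5 (log2 odds ratio 0.79, SE 0.27, adjusted p = 0.0190), at the 44.1st percentile of all genes. Tet2 had 1.21% and 1.15% in WT and 2.0% and 2.07% in mi5 (0.80, SE 0.24, adjusted p = 0.0103). Tet3 had 0.841% and 0.887% in WT and 1.22% and 1.21% in mi5, the smallest change of the 8 genes at this age on the log odds scale (0.50, SE 0.27, adjusted p = 0.118). In percentage points the difference was smallest for Tdg, 0.318 against 0.354 for Tet3, and limma on percent called Tet3 (adjusted p = 0.0443). Against the library median Tet3 went from 0.684 and 0.734 to 0.553 and 0.550. Dnmt3a, at 0.544 and 0.559 in WT and 0.477 and 0.523 in mi5, also separated downwards. So did Tet2, at 0.983 and 0.949 in WT and 0.903 and 0.938 in mi5. The rest of the 8 overlapped, and 27.6% of all genes separated downwards on that scale with so few libraries. Tdg had 0.722% and 0.556% in WT and 0.893% and 1.02% in mi5 (0.58, SE 0.42, adjusted p = 0.233). After centring none of the 8 genes passed at 4 months, although the 95% interval of 1 of them, Tet3, excluded 0, and 0.0353% of all genes fell relative to the median and 0% rose.

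These 4-month calls depended on the estimate of the spread and on single libraries. Without moderation of the dispersion the calls of Dnmt3b, Dnmt3l and Tet1 were lost (adjusted p = 0.0653, 0.0861 and 0.0618), while Dnmt3a and Tet3 passed (0.0218 and 0.0389) beside Dnmt1 and Tet2. Leaving out 1 of the 4-month libraries left a group with 1 library, which was then taken to vary like the others. Leaving out those of low Y-linked coverage left 1 against 1 at this age. Fewer of the 8 genes passed in each of these fits than in the main one. Calls over all genes also fell without WT replicate 1 and without the libraries of low Y-linked coverage. The loss in those fits was therefore not confined to the 8. The direction was unchanged for each gene in all of these fits.

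The size of the change was then compared between the mutants, a contrast that also holds the difference in age. No gene of the 8 passed, and 0 of all 19826 genes did (quasi-binomial fit, limma moderation), with 3 called by limma on percent. In the quasi-binomial fit 289 genes had an unadjusted p under 0.05, a smaller share than 0.05 of all genes. For Tet1 the mi5 change minus the KO change was -0.15 (SE 0.31), with a 95% interval of -0.79 to 0.49. For Dnmt3a it was 0.28 (SE 0.34, interval -0.43 to 1.0) and for Tet3 -0.10 (SE 0.31, interval -0.74 to 0.55). The interval for Dnmt3a holds both no difference and one as large as its change at P40. On the centred scale the Tet1 difference was -0.34 (SE 0.12, interval -0.59 to -0.09), which did not pass over all genes (adjusted p = 0.999).

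Between WT at P40 and WT at 4 months none of the 8 genes passed, in a comparison where 0.131% of all genes rose and 0% fell. The log2 odds ratios of the 8 ran from -0.17 for Dnmt3b to 0.11 for Tet1, against -0.08 for the median gene. Dnmt3a had -0.14 (SE 0.26).

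The 8 genes held 30 transcript rows, of which 16 were distinct, because rows of transcripts that span the same stretch carry the same calls. The 9 rows of Dnmt3b were identical, as were the 2 rows of Tet2 and the 2 of Tdg, and Tet1 had 1 row, so for these genes transcripts could not be set apart. Dnmt3a had 3 rows. NM_007872 and NM_001271753, both of the long transcript, differed by 83 calls or fewer per library and gave 0.736% and 0.737% in WT at P40. NM_153743, the short one, whose product lacks the N-terminal part of DNMT3A and starts inside the gene, had 6832 to 16764 calls. Its levels were 0.550% in WT and 0.899% in the KO at P40, and 0.621% in WT and 1.02% in mi5.

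Dnmt1 had 5 rows. NM_001199432, the largest, stood for the gene, NM_001199431, NM_001314011 and NM_010066 were identical at 0.828% in WT and 1.31% in the KO, and NM_001199433 had 0.830% and 1.32%. At 4 months the identical rows of Dnmt1 had 0.743% in WT and 1.35% in mi5, and NM_001199433 had 0.746% and 1.35%. Dnmt3l had 6 rows. Its shorter rows had 1.77% in WT and 3.05% in the KO at P40 for NM_001284197, 1.76% and 3.04% for NM_019448, and 1.97% and 3.32% for the identical rows NM_001284198, NM_001284199 and NM_001284200. The corresponding 4-month means of Dnmt3l in WT and mi5 were 1.53% and 3.27%, 1.52% and 3.27%, and 1.60% and 3.79%. Tet3 had 2 rows, NM_001347313, which stood for the gene, and the shorter NM_183138 with 0.724% in WT and 1.09% in the KO, and 0.755% in WT and 1.08% in mi5.

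Where a shorter row held fewer calls of both kinds than the longest row in every library, its calls were subtracted, which leaves the calls found only in the longer transcript. This takes the shorter stretch to lie inside the longer one; the tables give no positions. In 6 of the 7 comparisons the remainder was more methylated than the shorter row (two-sided exact sign-flip permutation tests over the 12 libraries, adjusted over the 7). The Dnmt1 comparisons are nearly the same calls, as are those of the Dnmt3l rows NM_001284197 and NM_019448.

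Tet3 showed the widest difference within a gene. The stretch found only in NM_001347313 had 1.52% ± 0.143 in WT at P40 against 0.724% ± 0.0367 in NM_183138 (SD, n = 4), and the remainder was higher in 12 of 12 libraries. The mean difference over all libraries was 0.986 points ± 0.295 (SD, n = 12, exact p = 4.9e-04, the smallest possible, adjusted p = 0.00342). Both stretches of Tet3 changed by about the same factor, 1.52 and 1.51 in the KO and 1.46 and 1.43 in mi5.

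For Dnmt3a the calls found only in the long transcript had 0.816%, 0.780%, 0.805% and 0.737% in the WT replicates at P40, and the short row had 0.597%, 0.629%, 0.549% and 0.426%. In the KO the long-only values were 1.14%, 1.07%, 1.03% and 0.844%, and those of the short row 0.845%, 1.0%, 0.90% and 0.847%. The long-only stretch was the higher one in 10 of 12 libraries, by 0.148 points ± 0.106 (SD, n = 12, exact p = 0.00195, adjusted p = 0.00456). The exceptions were KO replicate 4 and WT replicate 2 of the 4-month set. In the KO the short row rose by a factor of 1.63 and the rest by 1.30, each with no overlap between groups (exact permutation p = 0.0286). Whether these factors differ was tested after the values were seen, on the log2 ratio of the stretches: it averaged 0.53 in WT and 0.18 in the KO, with overlapping libraries (exact permutation p = 0.0571, adjusted p = 0.400 over 7). At 4 months the factors of the Dnmt3a stretches were 1.65 and 1.64.

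In Dnmt1 the stretch found only in NM_001199432 was higher than NM_001199431 in 10 of 12 libraries, by 0.335 points ± 0.342 (SD, n = 12, exact p = 0.00391, adjusted p = 0.00547), with 2019 to 5664 calls behind it. That mean is uneven over the groups: 0.860 points in mi5, against 0.240 in WT and 0.204 in the KO at P40 and 0.260 in WT at 4 months. In Dnmt3l the calls outside NM_019448 were higher by 0.650 points ± 0.582 in 11 of 12 libraries (exact p = 0.00146, adjusted p = 0.00456). The calls outside the shortest rows of Dnmt3l did not differ from them beyond the spread, at -0.0694 points ± 0.494 with 6 of 12 libraries higher (exact p = 0.632).

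**Figure D4:**
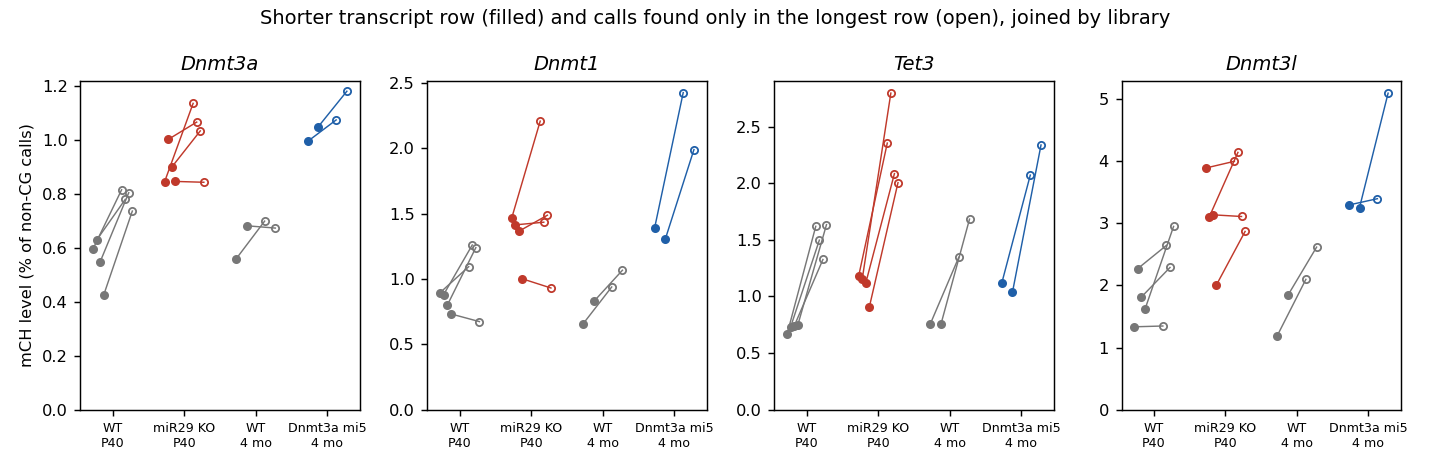
Level (percent of non-CG calls, axes from 0) of the shorter transcript row (filled) and of the calls found only in the longest row (open), joined within each library, for Dnmt3a (NM_153743), Dnmt1 (NM_001199431), Tet3 (NM_183138) and Dnmt3l (NM_019448). The open point is the higher one in 12 of 12 libraries for Tet3 and in 10 of 12 for Dnmt3a.

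Genes that act beside these enzymes were taken from lists of partners, of the methyl donor cycle and of demethylation and repair. Of the 16 partners of the methyltransferases 11 rose in the KO and 8 in mi5, with median log2 odds ratios of 0.60 and 0.78, while 76.4% and 58.8% of all genes rose. Uhrf1, which brings DNMT1 to newly replicated DNA, had the smallest p of that list at P40 and had 1.61% ± 0.189 in WT and 2.69% ± 0.518 in the KO (SD, n = 4 in both, a log2 odds ratio of 0.77, limma-moderated adjusted p = 1.3e-04). Zfp57, a zinc finger factor that keeps methylation at imprinted loci, had it at 4 months and had 1.17% ± 0.199 in WT and 3.50% ± 0.222 in mi5 (SD, n = 2 in both, a log2 odds ratio of 1.64, limma-moderated adjusted p = 0.00303).

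Of 17 genes of the methyl donor cycle, which makes S-adenosylmethionine and recycles it, 13 rose in the KO and 11 in mi5, with medians of 0.62 and 0.95, again near the 76.4% of all genes at P40 and the 58.8% at 4 months. The genes of smallest p in that list were Tyms, thymidylate synthase, at P40 and Ahcyl2, a homologue of the hydrolase of S-adenosylhomocysteine, at 4 months. Tyms went from 2.23% ± 0.266 to 3.70% ± 0.517 (SD, n = 4 each) and Ahcyl2 from 1.43% ± 0.0303 to 2.71% ± 0.0869 (SD, n = 2 each). Of 25 demethylation and repair genes 23 had enough calls (Gadd45b and Gadd45g did not), and 18 rose in the KO and 10 in mi5, with medians of 0.70 and 0.76, beside 76.4% and 58.8% of all genes. Here the genes of smallest p were Apobec1, a cytidine deaminase, at P40 and Neil2, a DNA glycosylase, at 4 months. Apobec1 went from 1.96% ± 0.230 to 3.39% ± 0.226 (SD, n = 4 each) and Neil2 from 1.87% ± 0.0762 to 4.32% ± 0.662 (SD, n = 2 each). No gene of the 3 lists fell in either mutant. After centring, 1 partner and 1 repair gene lay below the common shift at P40 and 0 above it, where 3.59% of all genes lay below and 1.01% above. At 4 months 0 genes of the lists, Zfp57 and Neil2 included, lay above or below it. Of all genes 0.0353% lay below and 0% above at that age. The medians of all genes were 0.65 and 0.83.

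The genes whose levels were most like those of Dnmt3a over the 12 libraries were Ppp1r12a, Ncor1, Cep350, Rabep1 and Shprh. They were ranked by the root mean square difference in log2(percent + 0.1) among 3988 genes with at least 0.5 of its calls in every library, and these differences were 0.0772, 0.0859, 0.0864, 0.0885 and 0.0961. Ppp1r12a, the closest, had means of 0.738% and 0.980% in WT and KO at P40 and 0.698% and 1.17% in WT and mi5 at 4 months. Of the 8 genes only Tet1, Tet2 and Tet3 had enough calls to be ranked, and of these Tet3 came nearest, at 0.268, at rank 306.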

How the data were processed

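Per the labels' protocols, DNA of the cortex was sheared by sonication, with lambda phage DNA added as a conversion control, and sequenced after bisulfite treatment. BSMAP and mm9 are named, without version, in the submitters' processing notes. For each RefSeq transcript the deposited tables give methylated non-CG calls as counts and expected counts of all non-CG calls, of which 35.7% to 62.2% were whole; the sources used here do not say how the authors made the latter, and they were rounded. The level is methylated over total calls, in percent. Conversion rates were not used.

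Names came from the RefSeq table of GRCm38.p6; of 36672 rows 300 matched none, and 1395 rows with repeated identifiers were left out. Genes under 500 calls in any library were not tested. A quasi-binomial logistic model with 1 mean per group was fitted to all 12 libraries, with dispersion moderated by limma 3.58.1 (squeezeVar with a robust trend; R 4.3.3). P-values were adjusted by Benjamini-Hochberg over 19826 genes. The median overdispersion was 5.13. Single values were compared with exact permutation tests (Python 3.11.15, scipy 1.17.1, numpy 2.4.6, pandas 2.3.3; matplotlib 3.10.9 for plots). The model was also run on simulated calls in which few genes changed and no shift was shared by whole libraries. That setting differs from these data, so it cannot show how often calls are false here. No pair of libraries of a group agreed within sampling noise (mean chi-square per gene of 2.73 or more). At 4 months this value was 2.73 for the WT pair and 4.27 for the mi5 pair. At P40 it was 3.32 to 15.1 in WT and 5.32 to 55.1 in the KO, where the pairs with replicate 4 had 24.0 or more.

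Members and lists were chosen with earlier results of these data known. All 8 genes are named, with the gene of smallest p per list and comparison and the 5 genes most like Dnmt3a. The alternatives changed the coverage minimum, scale, pseudocount, centring, background, moderation, row, block and libraries.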

Additional observations from a re-analysis of the deposited data

How the results depend on the processing

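The count of 7 genes rising in the KO was the same in every alternative but centring (1 above and 1 below the common shift) and leaving out the libraries of low Y-linked coverage (6). Genes past the threshold in either direction numbered 15163 at P40, 11658 at 4 months, 0 for the difference between mutants and 26 for WT age. After centring these were 911 at P40, 7 at 4 months and 305 for age. Testing every transcript row, which adds rows, gave 23632 at P40 and 18505 at 4 months. Limma on percent called 3 genes for the difference between mutants, 1 with the 1st percentile subtracted, and for age 1 gene passed without moderation. Leaving out 1 library gave 4622 (WT replicate 1 out) to 13328 genes (KO replicate 4 out) at 4 months, with 0 to 7 of the 8, and 18 to 42 for age. Without the libraries of low Y-linked coverage 1 gene and 0 of the 8 passed at 4 months.

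Centring reversed the sign, relative to the median gene, at P40 for Dnmt1 (-0.0354), Dnmt3a (-0.25), Tet2 (-0.0218), Tet3 (-0.0884) and Tdg (-0.41). At 4 months it did so for Dnmt3a (-0.15), Dnmt3b (-0.0425), Tet1 (-0.0806), Tet2 (-0.0744), Tet3 (-0.37) and Tdg (-0.29), where 0 of the 8 passed. These reversals follow from setting each gene against a median gene that rose. The Tet1 difference between mutants ran from -0.296 to 0.0106 when 1 library was left out, the last without WT replicate 1 of the 4-month set, and the age change of Dnmt3a was 0.16 on its short row; the cause was not tested.

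The alternatives to the centred values of Tet1 and Dnmt3a were chosen after seeing the data. At P40 same-numbered replicates did not deviate together beyond the range of the other pairs (correlations -0.05 to 0.11, against -0.14 to 0.21 for different numbers). At 4 months (-0.09) this check cannot decide, because the 2 libraries of a group deviate from their mean in mirror image. The replicate block gave 15241 genes at P40 and 12345 at 4 months, with 7 and 6 of the 8. Dnmt3l and Tdg had the fewest calls.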
